A study of Oryza sativa with 8 samples.

Results

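The 4 Hi-C libraries of the indica rice cultivar 93-11, 2 from seedlings under normal conditions and 2 from seedlings under heat stress (HS), were compared to locate the changes of A and B compartments and of topologically associating domains (TADs) along the chromosomes. They were chosen by their labels and are 4 of the 8 libraries of the series, the other 4 being the same conditions of the japonica cultivar Nipponbare (Nip). Each library came from 2 g of aerial parts of 3-week-old seedlings grown in culture solution under short days, so all tissues and cell types above the root were read together. HS seedlings were kept at 45 °C for 36 h at a relative humidity above 80% and a light intensity of 60 to 80 μmol per square metre and second, against 800 during growth. The light and humidity given to normal seedlings during those 36 h are not stated, so temperature cannot be told apart from them. The methods call the replicates biological without saying how they were separated, and p-values measure the spread between these libraries only. The study also lists fewer unique valid read pairs for both HS libraries of 93-11 than for either normal library, so depth and HS cannot be told apart in any result below.

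In an interphase nucleus, active and gene-rich chromatin tends to contact other active chromatin, and silent chromatin, which in rice includes the regions around centromeres, tends to contact other silent chromatin. The first principal component (PC1) of a chromosome's contact map separates these classes, and bins with a positive PC1 are called A and the others B. Within this pattern lie TADs, stretches whose sequences contact each other more than their surroundings, and smaller TADs can be nested inside larger ones.

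The genome was covered by 7763 bins of 50 kb, of which 7317 had a PC1 in all 4 libraries and were compared. PC1 is a vector of unit length on each chromosome, so its values are small and a change is relative to the rest of the chromosome. The label of 93-11 could not be checked against marker genes, since the values name no genes. Only the orientation of PC1 could be read from the gene numbers. Bins in A in both normal libraries that did not switch held 7.07 ± 2.42 genes (SD over 3443 bins), and such B bins 3.83 ± 2.38 (3550 bins). The methods assign active regions with the genome annotation, so this difference may have been set in advance and is no separate check.

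A bin was counted as switched where both normal libraries shared a call and both HS libraries shared the opposite call. Of 3675 bins that started in B, 125 switched to A, a rate of 3.4% (95% exact interval 2.84% to 4.04%). Of 3501 bins that started in A, 58 switched to B, a rate of 1.66% (1.26% to 2.14%). For comparison, calls differed in 1.93% of bins between the normal replicates and in 2.65% between the HS replicates. Between a normal and an HS library they differed in 4.40% to 4.91%. As shares of all bins compared, the switches were 1.71% and 0.793%. The intervals reflect counting error alone and treat adjacent bins as if they were independent. The share of A bins was 48.97% and 48.65% in the normal libraries and 50.01% and 50.23% in the HS libraries, so the groups did not overlap. The difference was 1.31 percentage points (exact two-sided permutation test, p = 0.333, the smallest that 2 against 2 libraries can give).

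The excess of B to A switches lay among bins that were already weakly compartmentalised. A switch is a crossing of 0, so switches in either direction are more likely near 0 by definition. The rates of B and A bins at the same distance from 0 can still be compared. Within 0.02 of a PC1 of 0, 84 of 352 B bins switched to A, or 23.9% (19.5% to 28.7%), against 41 of 371 A bins that switched to B, or 11.1% (8.05% to 14.7%). There were thus fewer B than A bins near 0, and the excess came from a higher rate and not from a larger number of bins there. Between 0.02 and 0.04 from 0, 38 of 1048 B bins (3.63%) and 16 of 897 A bins (1.78%) switched. Beyond 0.04, where 4508 of the bins lay, only 3 B bins and 1 A bin did so. Switched bins were also mostly shallow afterwards. The B to A bins had a median PC1 of -0.014 in normal and 0.0145 in HS, and the A to B bins 0.0118 and -0.0153.

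The distribution of PC1 was then read in bins grouped by their shared call in the normal libraries. In bins that were B in both normal libraries, the median PC1 was -0.042 in all 4 libraries. In bins that were A in both normal libraries it was 0.043 in all 4. The B bins nearest to A differed, with a 90th percentile of -0.021 and -0.020 in the normal libraries and of -0.0124 and -0.0114 in the HS libraries. The weakest A bins differed less, with a 10th percentile of 0.020 in both normal libraries and of 0.019 and 0.018 in the HS libraries. The centres of both classes therefore stayed in place while the shallow edge of the starting B bins lay closer to 0. These bins include those that switched, so the percentiles are not separate from the switches above. Bins within 0.02 of 0 made up 11.3% and 11.4% of the normal libraries and 12.6% and 13.3% of the HS libraries.

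The size of the change was measured by starting PC1, with each bin placed in a class by a normal library and its change taken against the other normal library, so that chance deviations of the first did not enter the change. For classes taken from normal replicate 1, bins that started from -0.03 to -0.02 had a mean PC1 higher by 0.00556 in HS, against a difference of 0.000424 between the normal libraries. With normal replicate 2 these values were 0.00543 and 0.000171. From -0.04 to -0.03 the mean was higher by 0.00395 and 0.00427. The change was weak at both extremes, at -0.000227 and -0.000367 below -0.05 and 0.00074 and 0.000821 above 0.05. On the A side, bins from 0.03 to 0.04 had a mean change of -0.00248 and -0.00272, and those from 0 to 0.02 were higher by at most 0.00121. Shallow A bins thus did not mirror shallow B bins, although this asymmetry itself was not tested.

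**Figure D1:**
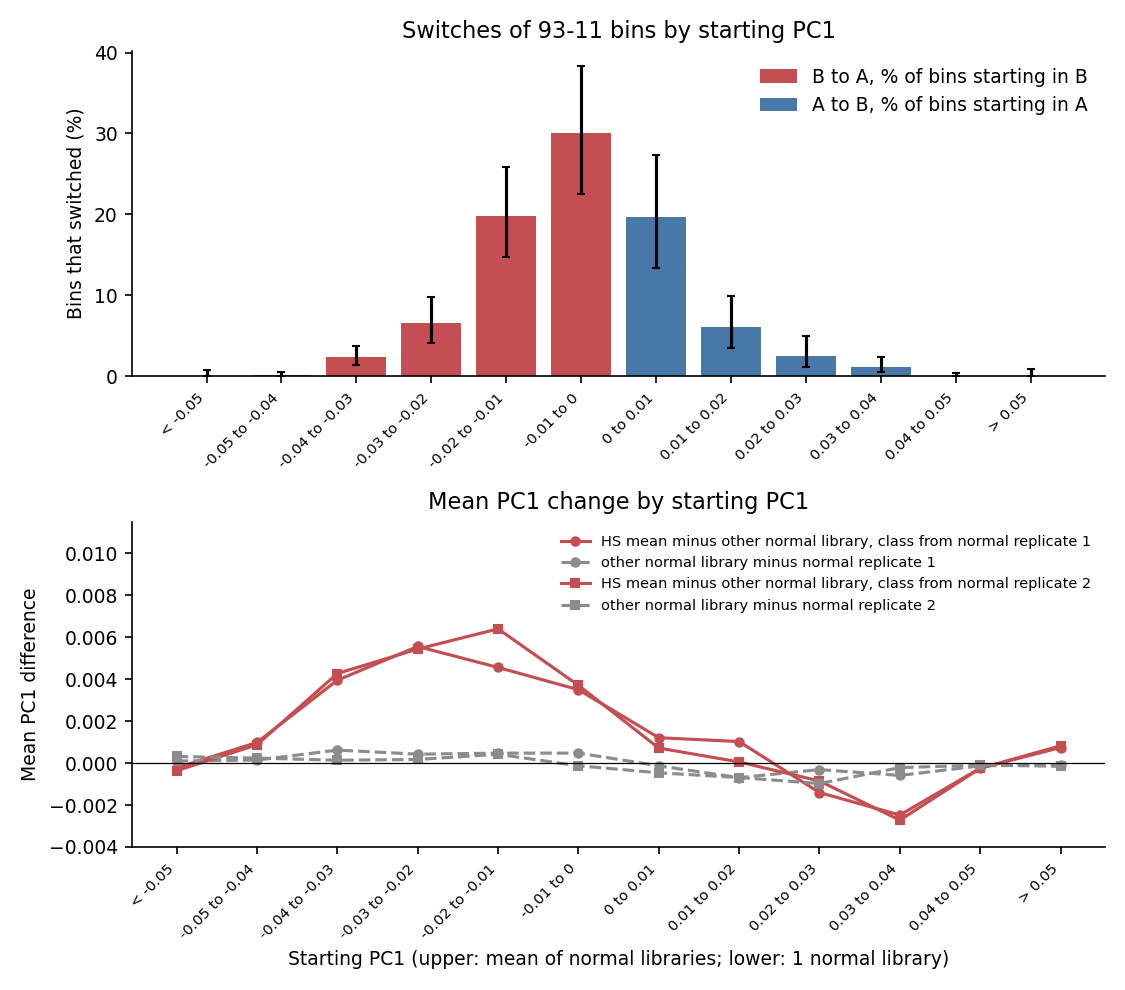
Upper: share of bins that switched in 93-11 by mean PC1 of the normal libraries, with exact 95% intervals, reaching 30% for B bins from -0.01 to 0 and 19.7% for A bins from 0 to 0.01. Lower: mean PC1 change by starting PC1, where a bin is classed by 1 normal library and compared with the other, in red for the HS mean and in grey for the normal libraries against each other; the red lines peak between 0.00543 and 0.00639 in B and lie near 0 at both ends.

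Chromosomes were then compared. The A share rose on 5 of 12 chromosomes (limma over the 12 chromosomes, Benjamini-Hochberg adjusted p under 0.05, 41.7% called) and fell on none. The fit gave all 12 chromosomes the same SE, and chromosomes of a library are not independent. Its p-values therefore do not measure the evidence of 2 against 2 libraries alone. Without normal replicate 2, 3 rose. On 8 of 12 (66.7%) both HS libraries were above both normal libraries. On chromosome 4 the A share was 46.2% and 46.4% in normal and 49.3% and 50.6% in HS, the largest rise, of 3.62 percentage points (SE 0.537, adjusted p = 6.7e-06). Chromosome 8 had 46.9% and 45.3% in normal and 49.1% and 48.4% in HS, a rise of 2.62. The increases on chromosomes 9, 10 and 5 were 2.61, 2.39 and 2.08 percentage points (limma, adjusted p = 2.4e-04, 5.2e-04 and 0.0017). Chromosomes 1 and 6 had the smallest differences, of 0.295 and 0.331 percentage points, with overlapping groups. Chromosome 7 went against the rest, from 44.2% and 44.5% in normal to 43.5% and 43.7% in HS, a difference of -0.79 that did not pass the test (adjusted p = 0.23).

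The switches themselves were divided the same way. The 5 chromosomes whose A share rose held 72 B to A and 17 A to B bins, or 4.98% of their starting B bins and 1.37% of their starting A bins. The other 7 held 53 and 41, or 2.38% and 1.82%, so that the excess was 55 bins on the former and 12 on the latter. Since the A share is set by the same calls, this is a description and not a separate test. Chromosome 4 had 15 B to A bins and 0 of 307 starting A bins in the other direction. Chromosome 10 had the highest B to A rate, 16 of 262 bins (6.11%), beside 8 A to B bins. Chromosome 11 switched nearly as often in both directions, with 14 and 13 bins, and chromosomes 3 and 6 were balanced at 3 and 3 and at 9 and 9. The contrast between the 5 and the other 7 chromosomes depended on the zero of PC1. With the chromosome median as zero, the 5 chromosomes held 38 B to A and 40 A to B bins and the other 7 held 51 and 57, so neither had an excess, and chromosome 4 had 4 and 6. With the chromosome mean as zero, the excess was 46 bins on the 5 and 13 on the other 7. Without chromosome 4 the genome still held 110 B to A and 58 A to B bins.

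**Figure D2:**
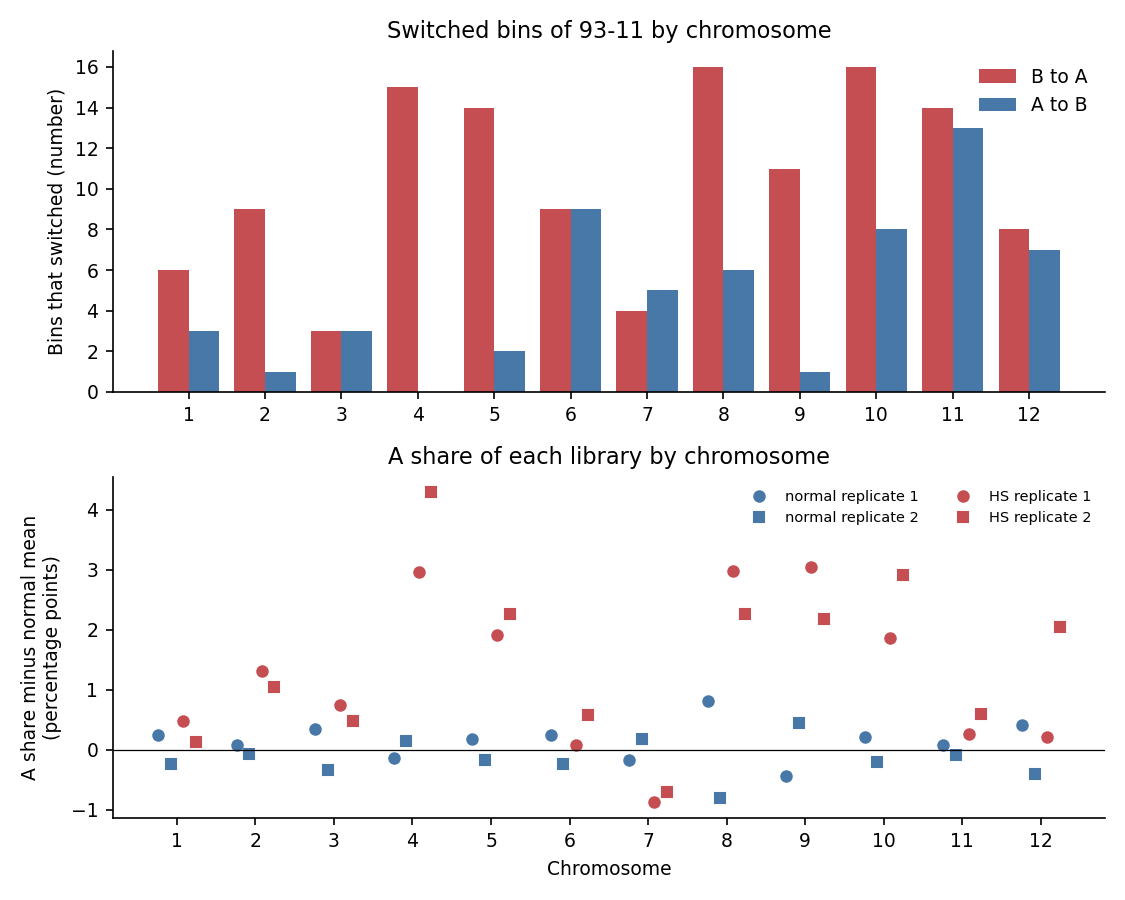
Upper: number of 50-kb bins that switched on each chromosome of 93-11. Lower: A share of each library minus the mean of the normal libraries of that chromosome, in percentage points; on chromosomes 4, 5, 8, 9 and 10 both HS libraries lie above both normal libraries by a margin that passed the test, and on chromosome 7 both lie below.

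To ask whether these chromosomes responded differently from those of Nip, the interaction of cultivar and HS was fitted with limma over the 8 libraries. The change in A share was greater in 93-11 on 5 of 12 chromosomes (41.7% called) and smaller on none. Here too the fit gave all 12 chromosomes the same SE, though chromosomes of a library are not independent. The difference was largest on chromosome 10, where the A share was higher by 2.39 percentage points in 93-11 and lower by 1.57 in Nip (difference 3.96, SE 0.731, adjusted p = 2.4e-05). Chromosomes 9, 4, 8 and 11 followed with differences of 2.84, 2.44, 2.14 and 1.99. Chromosome 5, called within 93-11, gave 2.08 in 93-11 and 1.51 in Nip, a difference of 0.576 with an SE of 0.731. Bins are in the coordinates of each cultivar's own files, and chromosomes were matched by number only.

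Along the chromosomes, the excess in number lay towards the side of the lower coordinates. Each chromosome was divided into 5 stretches of 20% of its length. From the start of the coordinates, these stretches held 32, 35, 26, 20 and 12 B to A bins and 14, 8, 13, 16 and 7 A to B bins, an excess of 18, 27, 13, 4 and 5. The A share between 20% and 40% of the length was 17.8% and 17.4% in normal and 19.9% and 20.6% in HS, the largest difference at 2.68 percentage points. In the last 20% it was 87.0% in both normal libraries and 87.2% and 87.5% in HS. The rates followed how each stretch was made up. Between 20% and 40%, where the excess was largest, 3.00% of 1165 B bins and 3.45% of 232 A bins switched. Without regard to starting PC1, the excess there was thus one of number and not of rate. Within 0.02 of the zero of PC1, however, 34.8% of 69 B bins and 10.4% of 67 A bins of this stretch switched. Over all starting PC1 values, B to A was most frequent in the outer stretches. Their few B bins switched at 6.75% of 474 and 6.52% of 184, against 2.06% of 1264 in the middle, the lowest rate. A to B was most frequent in the middle stretch, where 13 of 155 A bins switched (8.39%, 4.54% to 13.9%), and lowest in the last, with 7 of 1268 (0.552%).

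By distance from the nearer chromosome end, more of the excess lay inward, where more of the bins were. It was 6 bins within 2 Mb of an end (875 bins compared) and 6 from 2 to 5 Mb (1372). From 5 to 10 Mb it was 27 (2306 bins compared) and beyond 10 Mb it was 28 (2764). The inner share of the excess was 82.1% beyond 5 Mb but 65.7% between 20% and 80% of the length, so it depended on the classes. B bins switched at 7.89% within 2 Mb and at 2.16% beyond 10 Mb, while A bins switched at 0.847% and 3.01%. Each compartment was thus most often lost where it was the minority.

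The same held at the scale of single compartments. B bins that stood alone between other calls or unscored bins switched in 31 of 126 cases (24.6%), and those in blocks of 20 or more B bins in 19 of 1364 (1.39%). For A these were 15 of 114 (13.2%) and 1 of 2063 (0.0485%). The mean PC1 of lone B bins was -0.0254 and -0.0250 in normal and -0.0123 and -0.0126 in HS. Lone A bins differed less, at 0.0219 and 0.0218 in normal and 0.0191 and 0.0197 in HS. The rate was also higher beside the other compartment within the same range of starting PC1. Among B bins from 0.02 to 0.04 below 0, 17 of 172 bins beside an A bin switched (9.88%, 5.86% to 15.4%), against 21 of 876 others (2.40%, 1.49% to 3.64%).

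Most switches were isolated. The B to A bins formed 109 runs, of which 94 were 1 bin long, and the A to B bins 54 runs, of which 50 were. Runs of 2 or more bins numbered 15 against 4 and lay on 8 and 3 chromosomes. The longest was B to A on chromosome 10 from 5400001 to 5550000 with 12 genes, whose mean PC1 was -0.0207 and -0.0243 in normal and 0.0237 and 0.0213 in HS. At 62 of the 109 B to A runs an A bin was adjacent on at least 1 side, and at 31 both neighbours were B bins.

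Windows of 2 Mb were used to find where B to A switches gathered. Of 200 windows, 69 held a B to A and 44 an A to B switch. Only 6 held 4 or more B to A switches, with 26 in all, and none held 4 or more of the other direction. The window of chromosome 5 from 16000001 to 18000000 held 6. It had no A bins in either normal library and 15.0% and 20.0% in the HS libraries. Adjoining windows of chromosome 12, from 4000001 to 8000000, held 4 each, and the A share of the first was 45.9% and 43.2% in normal and 62.2% in both HS libraries. The other 3 were on chromosomes 8, 9 and 10, each between 4000001 and 8000000. These windows were chosen for their switches, so their A shares are a description.

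Gene number divided the excess further. Bins with 0 to 2, 3 to 4, 5 to 6, 7 to 9 and 10 or more genes had an excess of 21, 15, 17, 14 and 0 B to A bins. In bins with 0 to 2 genes, which are mostly B, the A share was 5.38% and 5.63% in normal and 8.24% and 7.91% in HS. In bins with 10 or more genes it was 90.8% and 91.5% in normal and 91.3% in both HS libraries, and the groups overlapped. The rate of B to A was 1.99% of 1153 bins with 0 to 2 genes and 5.24% of 458 bins with 7 to 9 genes. The rate of A to B was 3.23% of 62 and 0.684% of 1462. Switching B bins held 4.72 ± 2.24 genes (SD over 125 bins), more than the B bins that did not switch. Switching A bins held 5.31 ± 2.19 (58 bins), fewer than the other A bins. Gene number also followed starting PC1, so these differences are not separate from it. B bins held 5.47 genes on average within 0.02 of 0 and 3.15 beyond 0.04, and A bins 5.85 and 7.34. Within 0.02 of 0, the B to A rate was 44.8% at 0 to 2 genes and between 16.7% and 23.6% in the other classes.

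Gene-poor bins carried their excess near 0. Of bins with 0 to 2 genes within 0.02 of 0, 13 of 29 B bins switched to A (44.8%, 26.4% to 64.3%) and 1 of 20 A bins to B (5.0%). The A share of all 60 such bins was 40% and 45.0% in normal and 71.7% and 70.0% in HS. For 3 to 4 genes, the corresponding rates were 23.3% of 103 and 16.9% of 89. For 7 to 9 genes, they were 19.4% of 98 and 6.09% of 115. The number of gene-poor bins near 0 was small, which left the interval wide.

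**Figure D3:**
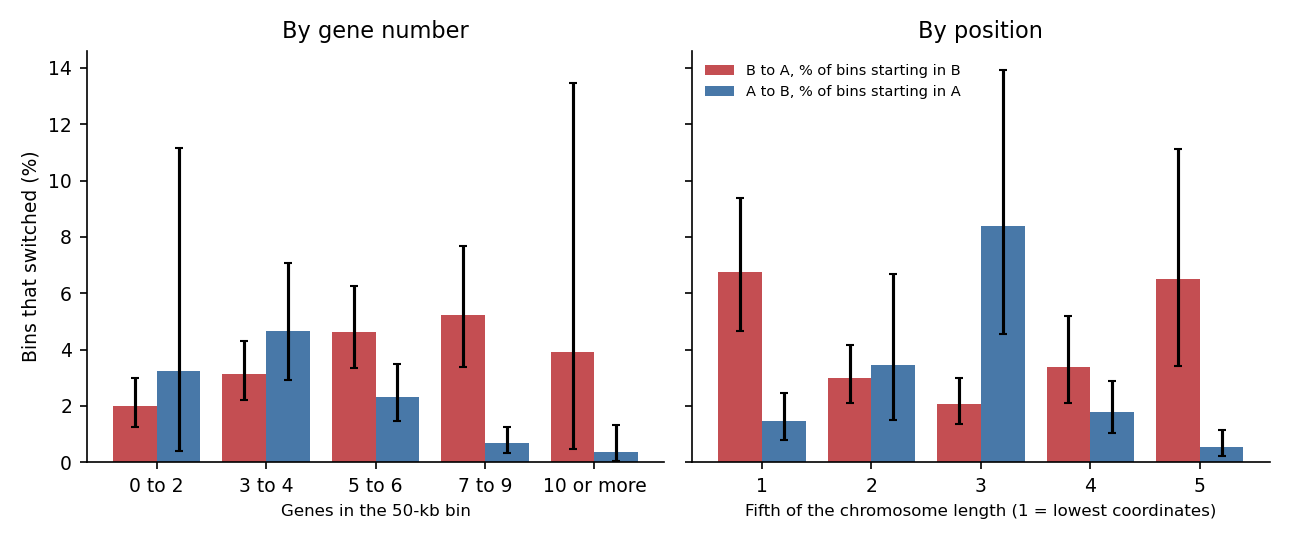
Share of 50-kb bins of 93-11 that switched, by number of genes in the bin (left) and by position along the chromosome in steps of 20% of its length (right), with exact 95% intervals. B to A exceeds A to B most at 7 to 9 genes and in the outermost positions, and A to B exceeds B to A in the middle of the chromosomes.

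The zero of PC1 is a convention, so the excess was recomputed with other zeros. With the chromosome median of each library set to 0, which pulls the share of A towards equality by construction, 89 bins switched from B to A and 97 from A to B. With the mean of each chromosome as zero there were 121 and 62, and with the 10th and 90th percentiles equally far from 0 there were 125 and 56. The excess was thus lost when the median set the zero and kept with the other zeros. In bins with 0 to 2 genes the counts were 21 to 3 even with the median, while the classes from 3 to 9 genes then gave 67 and 90. As rates, however, the former were 1.83% of starting B bins and 4.29% of the few starting A bins. Taken over all starting PC1 values, the excess of gene-poor bins was thus one of number, in a class that is mostly B, and not of rate. Among gene-poor bins within 0.02 of 0, with the zero of the files, 44.8% of 29 B bins and 5.0% of 20 A bins switched. There the excess was one of rate. Rates near 0 with the median as zero are not given here.

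PC1 was also tested bin by bin with limma. It was higher in HS in 139 bins (1.9% of 7317) and lower in 57 (0.779%) at an adjusted p under 0.05, and 1201 and 1109 bins had an unadjusted p under 0.05. Of the 139 bins, 107 had started in B and 30 in A. Of the 57 bins, 37 had started in A and 18 in B. In gene-poor B bins, with 0 to 2 genes, 38 of 1153 were higher (3.30%) and 0 lower, close to the 2.91% higher and 0.49% lower of all starting B bins. Their mean PC1 was -0.0440 and -0.0442 in normal and -0.0419 and -0.0424 in HS. Chromosome 8 held more of the higher bins than any other chromosome, with 28, and also more of the lower ones, with 13. These calls depended on the treatment of the values and on each library. With PC1 as deposited, 622 bins were higher and 627 lower, so the excess of higher bins was lost. With median centring 273 were higher and 2550 lower, which turned the direction, and with the replicate number as a block 0 passed either way. Without normal replicate 1, normal replicate 2 or HS replicate 2 no bin passed in either direction, and without HS replicate 1 there were 58 and 18.

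Among the switched bins, 43 of 125 B to A (34.4%) and 18 of 58 A to B (31.0%) passed this test. Of all bins, 1.9% were called higher and 0.779% lower. The switches are defined by the same PC1 values that the test uses, so these higher shares are no separate support. Among the switched bins that passed, the bins below had the largest changes in SD of the chromosome. All changed by at least 1.07 SD with adjusted p from 0.0166 to 0.0440 (limma). On chromosome 8 from 19300001 to 19350000, with 4 genes, PC1 was -0.045 and -0.044 in normal and 0.038 and 0.032 in HS. It was the only named B to A bin that started more than 0.04 below 0. On chromosome 2 from 31550001 to 31600000, with 8 genes, it was -0.025 and -0.029 in normal and 0.028 and 0.029 in HS. On chromosome 11 from 12300001 to 12350000, with 2 genes, it was -0.020 and -0.021 in normal and 0.036 and 0.037 in HS. The replicates of these bins lay within 0.006 of each other, and the groups far apart. Both traits are favoured by the selection on the test and on the size of the change.

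Chromosome 11 from 18750001 to 18800000 (3 genes), chromosome 8 from 22800001 to 22850000 (6 genes) and chromosome 6 from 8600001 to 8650000 (4 genes) rose in the same direction, by 0.060, 0.0615 and 0.056. Of the A to B bins, that of chromosome 11 from 3450001 to 3500000, with 4 genes, had 0.040 and 0.038 in normal and -0.025 and -0.031 in HS. Chromosome 12 from 8500001 to 8550000, with 5 genes, had 0.021 and 0.030 in normal and -0.042 and -0.045 in HS. Only the latter ended more than 0.04 below 0, and chromosome 11 held 3 of the 6 largest A to B bins. Its others were from 29700001 to 29750000 (5 genes), which fell by 0.0505, and from 14700001 to 14750000 (4 genes), which fell by 0.045. The remaining bins were on chromosome 10 from 13850001 to 13900000 (4 genes) and chromosome 8 from 20450001 to 20500000 (5 genes), and fell by 0.0535 and 0.045. None of the 12 bins held more than 8 genes. Which genes these are is not given in the sources used here.

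TADs were compared next by nesting and coverage. The lists give each TAD a level, from 0 for an outermost TAD upwards. They reached level 7 in both normal libraries and level 5 in both HS libraries. Levels 5 and above held 80 and 90 TADs in normal and 15 and 14 in HS. TADs at level 3 or deeper made up 15.3% and 12.7% of the normal lists and 6.71% and 5.38% of the HS lists. The mean nesting depth, the number of TADs over a covered position, was 2.57 and 2.48 in normal and 2.24 and 2.20 in HS, a difference of -0.30 (exact permutation test, p = 0.333, the smallest possible).

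Coverage, the share of the genome inside any TAD, was 97.9% and 97.7% in normal and 91.3% and 90.6% in HS. Stretches outside TADs numbered 372 and 404 in normal and 1264 and 1392 in HS, and their median length was 20 kb in all 4 libraries. Long stretches were also more numerous, with 8 and 11 of at least 50 kb in normal and 94 and 97 in HS, and 3 and 6 of at least 100 kb in normal and 24 and 25 in HS. The lower coverage thus came with more stretches, long ones included, at an equal median. The HS replicates shared 27.6% and 25.7% of their uncovered length, and the normal replicates 31.1% and 27.9%.

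By chromosome, nesting depth fell on 9 of 12 (75% called, limma, adjusted p under 0.05) and both HS libraries were below both normal libraries on 11 (91.7%). Chromosome 10 fell most, from 2.77 and 2.78 to 2.10 and 2.26, a change of -0.60 (SE 0.0941, adjusted p = 1.7e-05). Chromosome 4 followed with a change of -0.50. On chromosomes 11 and 5 the differences were -0.11 and -0.18 and did not pass (adjusted p = 0.274 and 0.0673), and only on chromosome 11 did the groups overlap. Without normal replicate 1 or HS replicate 2, 4 chromosomes passed.

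Coverage fell on 9 of 12 chromosomes (75% called), and on all 12 (100%) both HS libraries were below both normal libraries. It fell most on chromosomes 12 and 4, by 9.31 and 8.93 percentage points (SE 1.56 and 0.568). Chromosome 4 had 96.5% and 97.2% in normal and 87.8% and 88.1% in HS. Chromosome 3 fell least among the called, from 96.3% and 96.5% to 93.2% and 93.7%. On chromosome 10 the difference was -3.69 and did not pass (adjusted p = 0.0747), with 98.6% and 98.8% in normal and 96.5% and 93.5% in HS. Chromosome 10 thus had the largest fall in nesting beside the second smallest difference in coverage. Without either normal replicate no chromosome passed for coverage. For a difference of the coverage change from that of Nip, 0 chromosomes passed (0.0% called, limma interaction over 8 libraries, 1 chromosome with an unadjusted p under 0.05), which does not show that the cultivars were alike. Without HS replicate 1 of 93-11, 1 chromosome passed.

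**Figure D4:**
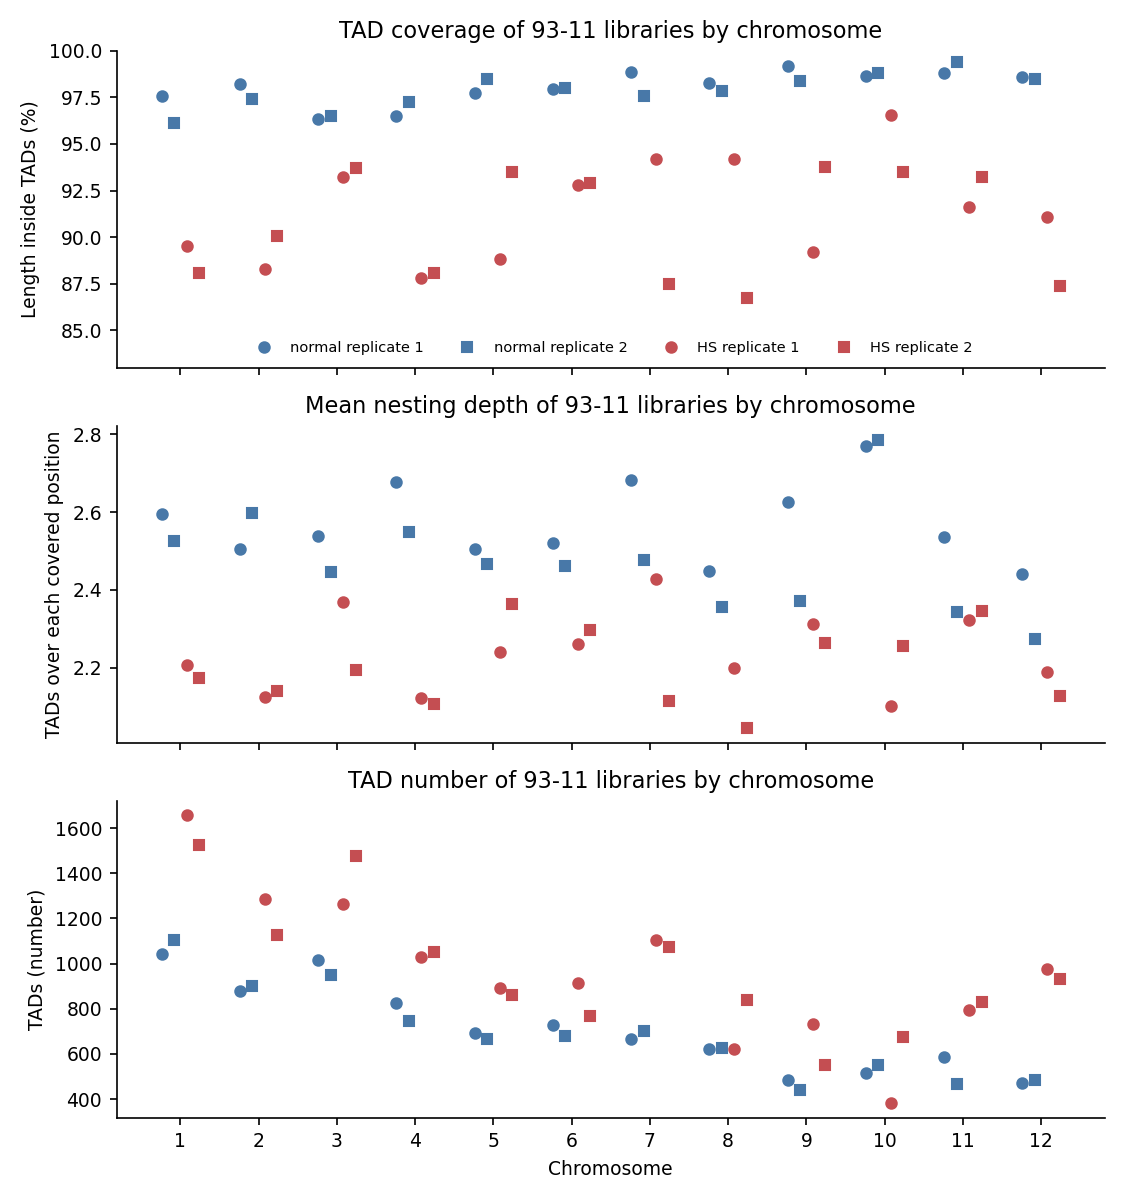
TAD coverage, mean nesting depth and TAD number of each 93-11 library by chromosome. Coverage of both HS libraries is below both normal libraries on all 12 chromosomes, nesting depth on 11, and TAD number is above on 10; the HS libraries differ most in number on chromosome 10, at 381 and 673.

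TAD number rose on 9 of 12 chromosomes (75% called), and on 10 (83.3%) the groups did not overlap. The rise was largest on chromosome 12, from 471 and 484 TADs to 975 and 934, a change of 1.00 on the log2 scale (SE 0.0957, adjusted p = 0.00106), and next on chromosome 7 with 0.67. Chromosome 10 went against the rest, with 514 and 553 in normal and 381 and 673 in HS, and chromosome 8 had 620 and 628 in normal and 622 and 837 in HS. On both the HS replicates were far apart, and without HS replicate 2, 10 chromosomes rose and 1 fell. Without either normal replicate only 1 chromosome passed. Counting TADs of at least 50 kb alone turned the direction. Their number was lower in HS on 11 of 12 chromosomes, and none passed the test (limma, unadjusted p under 0.05 on 1 higher and 3 lower). Outermost TADs alone were more numerous on all 12 chromosomes (100% with no overlap), and 9 passed (75% called).

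The lower nesting depth went with smaller outermost TADs. The median length of outermost TADs was 120 and 115 kb in normal and 70.0 and 65.0 kb in HS. Outermost TADs of 400 kb or more numbered 193 and 162 in normal and 32 and 25 in HS. Those of at least 200 kb covered 65.0% and 62.0% of the genome in normal and 24.9% and 21.8% in HS. At a given length, however, HS TADs held more inner TADs. Outermost TADs of 50 to 100 kb held 0.496 and 0.50 inner TADs in normal and 1.72 and 1.66 in HS. Those of 100 to 200 kb held 2.19 and 2.24 in normal and 3.83 and 3.67 in HS. From 200 to 400 kb these were 5.45 and 5.19 against 6.14 and 6.17, and at 400 kb or more the groups overlapped. With 2 against 2 libraries each of these differences had the smallest possible p of 0.33 at best (exact permutation test).

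Nesting depth also differed by compartment. In bins that were A in all 4 libraries it was 2.37 and 2.26 in normal and 2.19 and 2.15 in HS, and in bins that were B in all 4 it was 2.71 and 2.63 in normal and 2.29 and 2.23 in HS. B bins were thus more deeply nested than A bins by 0.336 and 0.372 TADs in normal and by 0.101 and 0.078 in HS. The difference between these gaps was -0.27, against an SD of at most 0.0253 (exact permutation test, p = 0.333, the smallest possible). The difference upon HS was more negative in B than in A on 12 of 12 chromosomes, and ranged from -0.15 to -0.81 in B and from 0.044 to -0.35 in A. Coverage did not show this, with 98.0% ± 0.216 (SD, n = 2) in normal and 92.0% ± 0.442 in HS in stable A bins, and 98.3% ± 0.111 and 92.2% ± 0.637 in stable B bins.

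Within B, nesting differed with gene number. Stable B bins with 0 to 2 genes had a depth of 2.90 ± 0.0739 (SD, n = 2) in normal and 2.33 ± 0.00908 in HS, a difference of -0.57. With 7 to 9 genes the difference was -0.25, while the 47 such bins with 10 or more genes went against this order at -0.31. In stable A bins it lay between -0.11 and -0.19 in every gene class. In HS the mean depth of stable B bins with up to 9 genes lay between 2.18 and 2.33, against 2.44 to 2.90 in normal. B to A bins had 2.63 ± 0.116 in normal, close to stable B bins (2.67), and 2.24 ± 0.148 in HS. This SD in HS exceeded the gap between stable B (2.26) and stable A bins (2.17), so B to A bins cannot be placed with either there. A to B bins had 2.24 ± 0.0496 in normal and 2.06 ± 0.0372 in HS. By position, the depth differed most between 20% and 40% of the chromosome length, by -0.45, and least in the first 20%, by -0.19.

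**Figure D5:**
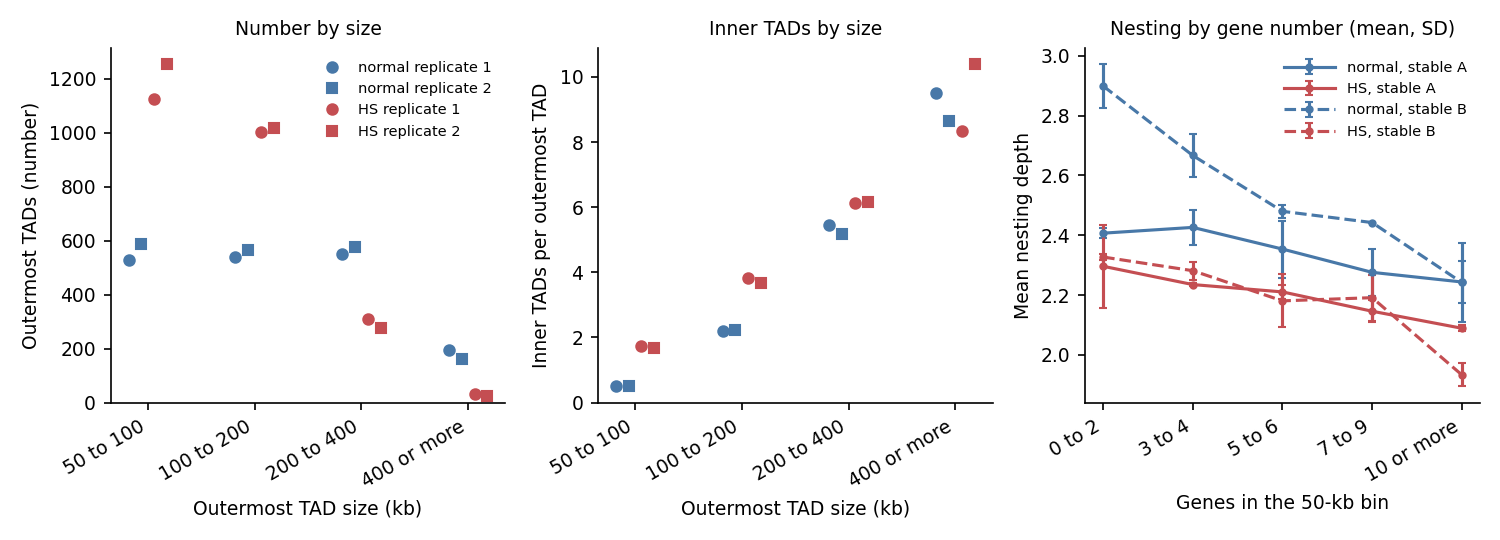
Left and middle: number of outermost TADs and mean number of inner TADs per outermost TAD, by length of the outermost TAD, in each library of 93-11. Right: mean nesting depth ± SD (n = 2) by number of genes in the bin, in bins that were A or B in all 4 libraries; the normal line for stable B falls from 2.90 at 0 to 2 genes, and the HS lines of A and B lie close together up to 9 genes.

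Coverage differed to a similar extent in bins of every gene class, from -5.51 to -6.29 percentage points, and in every 20% stretch of the chromosomes, from -5.47 to -6.72. By distance from the nearer end it differed by -7.24 points within 2 Mb and by -5.35 points from 2 to 5 Mb. The difference was larger in the bins left out of the compartment comparison for want of a PC1 in some library. These 446 bins held 2.25 genes on average, and TADs covered 93.7% and 92.6% of them in normal and 70.3% and 72.8% in HS, a difference of -21.6 percentage points (exact permutation test, p = 0.333, the smallest possible).

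The regions that left TADs in both replicates were short and few. There were 316 stretches inside TADs in both normal libraries and outside in both HS libraries, with 7230 kb in all (1.86% of the genome) and a median of 15 kb. In the opposite direction there were 58, with 790 kb. Of the former, 14 were at least 100 kb long, and 13 of these touched bins without a PC1. The longest lay on chromosome 3 from 13825001 to 14315000 (490 kb, 4 genes in its bins), chromosome 11 from 28710001 to 29110000 (400 kb, 9 genes), chromosome 7 from 16480001 to 16740000 (260 kb, 6 genes) and chromosome 10 from 10850001 to 11110000 (260 kb, 11 genes). All bins of the first 2 lacked a PC1. The longest stretch in the opposite direction was 40 kb, on chromosome 7.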

How the data were processed

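Read pairs were processed by the authors with HiC-Pro (version 2.8.1 in the submitters' processing notes), and contact matrices were built with HiCExplorer. Per the file headers, the deposited score per 50-kb bin is PC1, rounded to 3 decimals, beside a whole-number count of genes. The methods describe PC1 at a coarser resolution and do not describe TAD levels, so the tools behind these values, the genome build and the annotation are not given in the sources used here. The deposited TAD lists give start, end and level, in steps of 5 kb. The deposited files hold each replicate separately.

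Bins at exactly 0 were called B, as in the files. PC1 per bin was tested with limma (version 3.58.1, run in R version 4.3.3), and p-values were adjusted by the Benjamini-Hochberg method. Rounding makes replicates tie, so random digits within the rounding were added in 21 seeded draws and the median adjusted p was used. Measures per chromosome were tested with limma over 12 chromosomes, and the interaction with Nip over 8 libraries. Chromosomes of a library are not independent, so these p-values lean on more values than there are libraries. Single values were tested by exact two-sided permutation. The fits were tested on simulated data. The bins named are the 6 per direction with the largest change in SD of the chromosome among switched bins that passed, together with the longest run, the 2 largest and smallest chromosomes per measure and any that went against the rest, and the 4 longest stretches that left TADs. Members, classes and tests were chosen with earlier results of these data known. Contact counts were not used here, so the effect of sequencing depth on PC1 and TAD calls was not tested, and the number of libraries limits the precision.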

Additional observations from a re-analysis of the deposited data

Results flagged for a closer look

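The change of the A share upon HS differed between the cultivars on 5 chromosomes by the interaction fit (limma over 8 libraries, Benjamini-Hochberg adjustment over 12 chromosomes). The p-values below treat the chromosomes of a library as independent, which they are not. On chromosome 10 it was 2.39 percentage points in 93-11 and -1.57 in Nip, a difference of 3.96 (adjusted p = 2.4e-05). On chromosome 9 the difference was 2.84, with -0.23 in Nip (adjusted p = 0.0019). On chromosome 4 it was 2.44, with 1.19 in Nip (adjusted p = 0.0067), and on chromosome 8 it was 2.14, with 0.48 in Nip (adjusted p = 0.0156). On chromosome 11 it was 1.99, with a change of 0.42 in 93-11 that did not pass on its own and of -1.57 in Nip (adjusted p = 0.0214). Without normal replicate 2 or HS replicate 2 of 93-11, 3 chromosomes passed. Groups of 2 libraries were too small to look for a library far from the others.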

How the results depend on the processing

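Zeros at the mean and at the percentiles of a chromosome, and the count without chromosome 4, were chosen after seeing the data. B to A and A to B switches numbered 89 and 97 with PC1 centred on the chromosome median, 221 and 117 with calls from the mean of the replicates, 28 and 9 with an absolute PC1 of at least 0.25 SD, and 31 and 8 when only runs of 2 bins or longer were kept. Leaving out a library gave 147 to 180 B to A and 79 to 91 A to B switches, since fewer libraries then had to share a call. Bins with higher and lower PC1 numbered 622 and 627 as deposited, 253 and 125 with the rounding variance added, and 273 and 2550 with median centring, which shifts most bins of a chromosome together. Leaving out a library gave 0 to 58 and 0 to 18.

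Replicate numbers were shared between conditions, but nothing states that a number marks a shared batch. With only 2 pairs, the deviations of same-numbered libraries had r = 0.014 across bins and, across chromosomes, -0.030 for A share, 0.29 for log2 TAD number, 0.36 for coverage and 0.50 for nesting depth. The numbers were therefore not taken as pairs, although the TAD measures deviated in the same direction. With the replicate block 0 bins were higher and 0 lower in PC1 (942 and 823 at an unadjusted p under 0.05), and 5 chromosomes were lower in coverage. For A share, TAD number, nesting and the difference of A share from Nip, 5, 9, 11 and 4 chromosomes passed with the block.

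With TADs of at least 50 kb, 0 chromosomes were higher in TAD number, with a median log2 difference of -0.063. Leaving out a library gave 3 to 6 chromosomes for A share, 1 to 11 for TAD number, 0 to 12 for coverage, 4 to 8 for nesting, 3 to 5 for the difference of A share from Nip and 0 to 1 for that of coverage. Of the 99 recomputed values for the comparisons, 62 were labelled as kept, 36 as moved and 1 as reversed. Genome-wide differences under another setting were labelled by direction alone. With TADs of at least 50 kb, coverage differed by -13.3 in place of -6.89 points and nesting depth by -0.51 in place of -0.30. Bin counts were labelled separately for each direction, so the turned excess with median centring does not count as reversed. Genome-wide, A share, coverage and nesting depth differed by 1.15 to 1.46 points, -7.21 to -6.56 points and -0.35 to -0.25 without any 1 library. The cause of the moved values was not tested where none is named. With 2 libraries per group and no contact counts, depth cannot be told apart from HS.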
